A study of Mus musculus with 15 samples.

Results

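The neighbouring cytokine genes Il2 and Il21 lie in tandem on mouse chromosome 3 (mm10), both on the minus strand, and their chromatin accessibility was followed through activation of CD4+ T cells with and without Irf5. Il2 spans chr3:37120713-37125954 and Il21 spans chr3:37222759-37232636, so their start sites are 106.7 kb apart and 96804 bp of DNA separate the genes. Peaks of 15 ATAC-seq libraries were merged wherever they overlapped by at least 1 bp. Merged regions called in at least 2 libraries were given to the nearest protein-coding gene within 100 kb. Il2 received 7 regions and Il21 received 19, together 26 of 83743 regions in the genome. The choice used distance alone, and the farthest region lay 47.3 kb from its gene. A further 7 Il21 regions were each seen in a single library, at a pileup between 0.389 and 1.55 FPM (fragments over the peak summit for every 1000000 fragments kept by the peak caller), and were not tested. The tested region nearest to that limit was called in 2 libraries, IRF5-/- libraries 1 and 4 at 72 h, at 0.801 and 0.655 FPM.

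ATAC-seq marks open chromatin by the insertion of sequencing adapters with the Tn5 transposase. The study profiled mouse CD4+ T cells of genotype IRF5-/- (knockout) or IRF5+/+ (wild type) after 72 h of activation in vitro and in the untreated state at 0 h. There were 4 IRF5-/- and 4 IRF5+/+ libraries at 72 h, and 3 IRF5-/- (replicates 1, 3 and 4) and 4 IRF5+/+ libraries at 0 h. Strain, age, sort and activating agent are not given in the sources used here, and 72 h of activation cannot be told apart from 72 h in culture. The labels call the libraries biological replicates without saying whether they came from separate animals or cultures. Each p-value therefore speaks only for these libraries, whose differences may be technical. The exact tests count libraries with a peak and measure no spread. Fits of level over all 15 libraries, or over regions called in every library at 0 h, used a spread shared by all regions, not that of the single region. Depth was 20.5 to 29.0 M fragments per library, and the weakest peak called in a library stood at 0.318 to 0.402 FPM. IRF5-/- library 3 at 0 h stood apart, with 29994 peaks against a median of 55519 over all libraries. Several results that rest on it are given with and without it. The targeted gene does not check the labels here: of 5 Irf5 regions, 0 differed by genotype (exact adjusted p = 1 each), and the region at its start was called in 7 of 7 IRF5-/- and 8 of 8 IRF5+/+ libraries, at 0.918 to 2.53 FPM in IRF5-/- and 1.11 to 2.53 FPM in IRF5+/+. Which part of Irf5 was deleted could not be read from the labels. T cell marker genes held 95 tested regions, of which 19 (20%) were called in all 15 libraries, against 25.3% of all regions, including regions of Cd3e, Cd3d, Cd3g and Cd4. Of the B cell markers, Cd79b and Ms4a1 had no tested region and Cd79a had 1, called in all 15 libraries. The 11 B cell marker regions were called at 54.5% to 72.7% in IRF5-/- and 63.6% to 81.8% in IRF5+/+ libraries at 72 h, and at 18.2% to 36.4% in IRF5-/- and 45.5% to 54.5% in IRF5+/+ libraries at 0 h. All tested regions were called at 61.1% to 66.9% in IRF5-/- and 66.0% to 75.2% in IRF5+/+ libraries at 72 h. At 0 h they were called at 33.3% to 50.4% in IRF5-/- and 45.9% to 54.6% in IRF5+/+ libraries. The part of other cells in the results below was not tested.

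Interleukin-2 and interleukin-21 belong to the cytokine family that signals through the common gamma chain. Interleukin-2 is secreted by CD4+ T cells soon after antigen receptor stimulation and acts through STAT5 to drive T cell growth and to maintain regulatory T cells. Interleukin-21 is made mainly by follicular helper and Th17 cells and acts through STAT3, helping B cells to form antibody responses. NFAT, AP-1 and NF-kB factors act on the Il2 promoter after receptor stimulation, and NFAT, c-Maf, IRF4 and BATF are known to act on Il21.

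The 250 bases before each start site are shown because the peaks nearest to the start sites reached into them in most libraries with such a peak. They were taken from RefSeq (GRCm38.p6, the assembly behind mm10), minus strand, at chr3:37125955-37126204 for Il2 and chr3:37232637-37232886 for Il21. Capitals mark the NFAT core letters GGAAA or, where they lie on the other strand, TTTCC.
Il2 promoter: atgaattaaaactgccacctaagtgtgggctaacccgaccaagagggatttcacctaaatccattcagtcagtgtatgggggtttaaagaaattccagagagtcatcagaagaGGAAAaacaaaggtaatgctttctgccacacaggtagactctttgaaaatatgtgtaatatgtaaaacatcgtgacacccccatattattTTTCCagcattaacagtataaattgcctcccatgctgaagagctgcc
Il21 promoter: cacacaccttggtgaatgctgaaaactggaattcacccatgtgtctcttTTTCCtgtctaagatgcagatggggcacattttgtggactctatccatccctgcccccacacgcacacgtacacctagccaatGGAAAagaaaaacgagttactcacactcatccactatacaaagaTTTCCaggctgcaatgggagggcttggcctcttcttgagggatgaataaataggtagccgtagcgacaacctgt
The Il2 window holds 1 GGAAA, beginning 137 bases before the start, and 1 TTTCC, beginning 47 bases before it. The Il21 window holds 1 GGAAA, beginning 118 bases before the start, and 2 TTTCC, beginning 201 and 74 bases before it. Over 32851 promoter windows of the same length, 55.6% held at least 1 such match on either strand, 21.4% at least 2 and 6.39% at least 3. Neither window holds the AP-1 letters TGANTCA (6.75% of windows did) or the paired IRF letters, GAAA followed after any 2 bases by GAAA again (2.98% did), searched on both strands. The Il2 start-site peak reached into the printed window in 10 of the 12 libraries that had it and covered all 250 bases in 7, but its summit lay inside the gene in every one, 47 to 141 bp past the start. The nearest Il21 peak reached into the window in 6 of its 7 libraries and had its summit 355 to 408 bp before the start.

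The first comparison asked how the locus differed between activated and untreated cells. Of the 26 regions, 7 were gained at 72 h (26.9%), against 18.4% of all regions, and 2 were lost (7.69%), against 4.65% of all regions. Il2 accounted for 3 gained and 0 lost of its 7, and Il21 for 4 gained and 2 lost of its 19. A gain or loss means that the number of libraries with a peak differed between 72 h and 0 h at an adjusted p under 0.05 (two-sided exact conditional test within genotype, Benjamini-Hochberg over 83743 regions). Between the genes lay 17 regions, of which 6 were gained and 1 was lost. Inside Il21, 1 of 4 regions was lost, and upstream of Il21, 1 of 4 was gained.

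Per library, IRF5-/- cells at 72 h had peaks in 15 to 19 of the 26 regions and IRF5+/+ cells at 72 h in 17 to 21. At 0 h, IRF5-/- cells had 6, 10 and 13, and IRF5+/+ cells 10 to 15. The groups at 72 h and 0 h therefore met at 15 of 26 and did not overlap within IRF5-/- or within IRF5+/+. As a share, the locus lay close to the genome: 57.7% to 80.8% of its regions were called at 72 h, against 61.1% to 75.2% of all regions, and 23.1% to 57.7% at 0 h, against 33.3% to 54.6% of all regions.

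**Figure D1:**
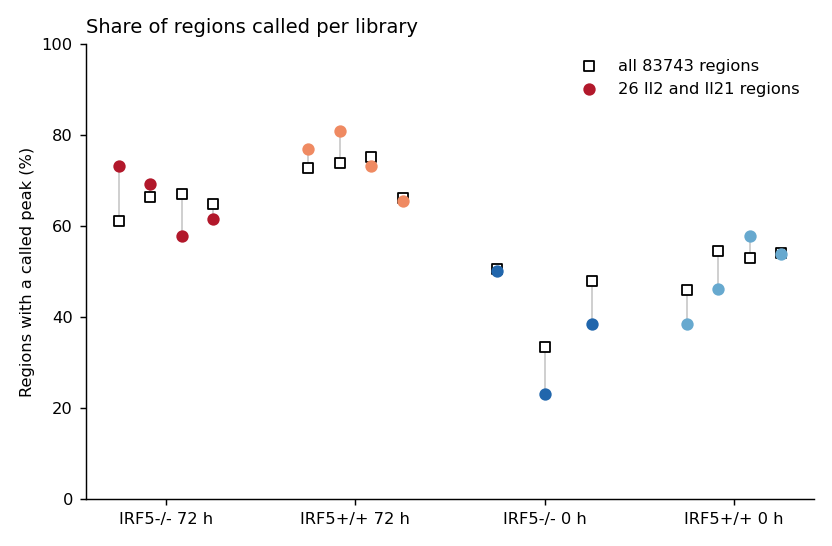
Share of regions with a called peak (y axis, percent) in each of 15 libraries, by group along the x axis. Filled circles are the 26 Il2 and Il21 regions, open squares all 83743 tested regions of the same library, and a line joins the pair. The locus lay between 57.7% and 80.8% at 72 h and between 23.1% and 57.7% at 0 h.

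The most proximal gained region lay 2.6 kb upstream of the Il2 start (chr3:37128112-37128776). Its pileup was 1.65, 2.02, 1.62 and 1.03 FPM in the IRF5-/- libraries at 72 h and 1.87, 1.56, 1.91 and 1.44 FPM in the IRF5+/+ libraries at 72 h. No library at 0 h had a peak there, so the peak separated the 8 activated from the 7 untreated libraries (exact adjusted p = 0.00399), as at 8.86% of all regions. When the authors merged the replicates of a group before peak calling, a weak peak was also called there at 0 h, with a fold enrichment over local background of 3.95 in IRF5-/- and 3.53 in IRF5+/+, against 8.72 in IRF5-/- and 7.32 in IRF5+/+ at 72 h. The lack of a peak in single libraries is therefore not a lack of signal.

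A weaker region 8.4 kb upstream of Il2 (chr3:37134149-37134719) had the same pattern. Its pileup was 0.801, 0.928, 0.598 and 0.608 FPM in IRF5-/- and 0.770, 0.726, 1.15 and 0.972 FPM in IRF5+/+ at 72 h, with no peak at 0 h in single or merged libraries (exact adjusted p = 0.00399). The third region, 31.2 kb upstream of Il2 (chr3:37157009-37157441), was called in 7 of 8 libraries at 72 h and in 1 of 7 at 0 h (exact adjusted p = 0.0443). Its pileup was 1.02, 0.896 and 1.26 FPM in 3 IRF5-/- and 1.26, 1.09, 1.11 and 1.17 FPM in 4 IRF5+/+ libraries at 72 h, against 1.19 FPM in IRF5+/+ library 4 at 0 h. The levels at 72 h and 0 h overlapped, and only the number of libraries with a peak set them apart. The merged lists also held a peak there at 0 h, with a fold enrichment of 2.41 in IRF5-/- and 2.56 in IRF5+/+. At 72 h that enrichment was 3.57 in IRF5-/- and 3.28 in IRF5+/+.

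At the Il2 start site itself (chr3:37125585-37126751) the peak was called in 6 of 8 libraries at 72 h and 6 of 7 at 0 h, and its presence did not pass the test (exact p = 1). Where it was called, the pileup was 1.09, 0.854 and 0.608 FPM in IRF5-/- and 1.01, 1.16 and 0.972 FPM in IRF5+/+ at 72 h, against 1.69 and 2.0 FPM in IRF5-/- and 1.83, 1.86, 2.14 and 2.02 FPM in IRF5+/+ at 0 h. Every untreated value lay above every activated value. In the fit that leaves out libraries without a peak, the log2 difference between 72 h and 0 h was −1.15 ± 0.33 (SE) in IRF5-/- (limma adjusted p = 0.00195) and −0.91 ± 0.27 in IRF5+/+ (limma adjusted p = 0.00214). The median over the 30003 regions of that fit was itself −0.43 in IRF5-/- and −0.68 in IRF5+/+. The IRF5+/+ value lay within 1 SE of that median. The IRF5-/- value rests on libraries 1 and 4 at 0 h, since library 3 had no peak there, and in regions called in all libraries the IRF5-/- median without library 3 was −0.81. Peaks at the start site were also narrower at 72 h, 193 to 576 bp in IRF5-/- and 221 to 451 bp in IRF5+/+, against 800 and 898 bp in IRF5-/- and 753 to 1167 bp in IRF5+/+ at 0 h.

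**Figure D2:**
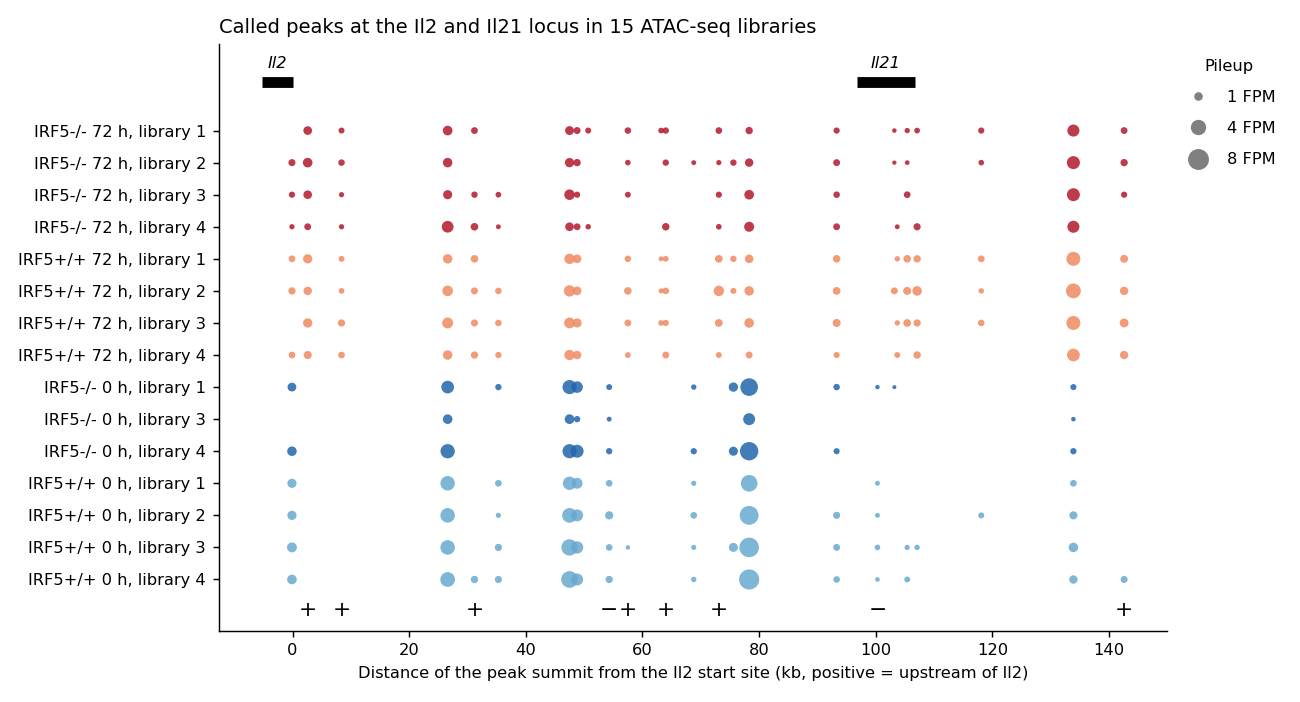
Called peaks of the 26 tested regions in 15 libraries (rows), by distance of the summit from the Il2 start site (x axis, kb, positive upstream). Dot area is proportional to pileup in FPM, black bars are the genes, and the signs at the bottom mark the 7 regions gained (+) and 2 lost (−) at 72 h. The 2.6 kb and 8.4 kb regions appear in all 8 libraries at 72 h and in none at 0 h, while 5 regions are present in all 15 libraries.

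Il21 gained 3 regions on its 3′ side and 1 upstream. The region 33.6 kb downstream of its start (chr3:37198920-37199188) was called in all 8 libraries at 72 h and none at 0 h (exact adjusted p = 0.00399). Its pileup was 0.979, 0.606, 0.854 and 0.702 FPM in IRF5-/- and 1.30, 2.39, 1.34 and 0.778 FPM in IRF5+/+. The IRF5+/+ libraries spread more widely there, with library 2 the highest and library 4 within the IRF5-/- range. The region 42.7 kb downstream (chr3:37189767-37190230) had 0.890, 0.888 and 1.22 FPM in 3 IRF5-/- and 0.730, 0.980, 0.842 and 1.05 FPM in 4 IRF5+/+ libraries at 72 h, and no peak at 0 h (exact adjusted p = 0.0121). The genotypes overlapped there.

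The region 49.2 kb downstream of the Il21 start (chr3:37183273-37183632) was called in 7 libraries at 72 h and 1 at 0 h (exact adjusted p = 0.0443). It had 0.935, 0.686 and 0.768 FPM in IRF5-/- and 0.932, 1.27, 1.03 and 0.739 FPM in IRF5+/+ at 72 h, against 0.445 FPM in IRF5+/+ library 3 at 0 h. The region 35.9 kb upstream of Il21 (chr3:37268212-37268716) had the same counts and the same adjusted p, with 1.02, 1.17 and 0.854 FPM in IRF5-/- and 1.38, 1.56, 1.72 and 1.52 FPM in IRF5+/+ at 72 h, against 1.07 FPM in IRF5+/+ library 4 at 0 h. That single untreated value lay inside the IRF5-/- range at 72 h.

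Il21 lost 2 regions. The region 52.4 kb downstream of the start (chr3:37179970-37180561) had no peak in any of 8 libraries at 72 h and was called in all 7 at 0 h (exact adjusted p = 0.00399), as at 1.37% of all regions. At 0 h it had 0.777, 0.536 and 0.877 FPM in IRF5-/- and 0.982, 1.48, 0.971 and 1.15 FPM in IRF5+/+, each IRF5-/- value below each IRF5+/+ value. That log2 difference in level, IRF5-/- minus IRF5+/+, was −0.66 and did not pass (limma adjusted p = 0.330). The median region at 0 h itself differed by −0.51. Without IRF5-/- library 3 at 0 h the region differed by −0.45 and the median region by −0.13. The merged IRF5+/+ list at 72 h still held a weak peak there, with a fold enrichment of 3.05 against 8.11 in the merged IRF5+/+ list at 0 h. The region inside Il21, 6.4 kb past the start (chr3:37225951-37226499), was likewise absent at 72 h and was called at 0 h in IRF5-/- library 1 at 0.424 FPM and in the 4 IRF5+/+ libraries at 0.535, 0.517, 0.688 and 0.475 FPM (exact adjusted p = 0.0308). These levels were close to the weakest peaks called.

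The peak nearest to the Il21 start (chr3:37232716-37233151, 80 bp before the gene) was called in 6 of 8 libraries at 72 h and 1 of 7 at 0 h, which missed the threshold (exact p = 0.0306, adjusted p = 0.101). Its pileup was 0.712 and 1.12 FPM in IRF5-/- libraries 1 and 4 and 1.22, 2.0, 1.15 and 1.21 FPM in the IRF5+/+ libraries at 72 h, against 0.647 FPM in IRF5+/+ library 3 at 0 h. The untreated value was the lowest of all.

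Inside the gene, 1.3 kb past the start (chr3:37231130-37231566), a peak was called in 6 libraries at 72 h and 2 at 0 h (exact adjusted p = 0.340). It had 0.623, 0.484 and 0.982 FPM in IRF5-/- and 1.26, 1.42 and 1.30 FPM in IRF5+/+ at 72 h, against 0.607 and 0.752 FPM in IRF5+/+ at 0 h. Further in, the region 3.0 kb past the start was called at 0.515 FPM in IRF5-/- library 4 and at 0.649, 0.651 and 0.778 FPM in 3 IRF5+/+ libraries at 72 h. The region 3.5 kb past the start was called at 0.445 and 0.404 FPM in IRF5-/- and 1.05 FPM in IRF5+/+ at 72 h, against 0.353 FPM in IRF5-/- at 0 h. None of these intragenic regions passed the test for activation.

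Beyond the 3′ end of Il21, 13.4 kb past the start (chr3:37218965-37219566), the peak was called in all 8 libraries at 72 h and in 5 of 7 at 0 h (exact adjusted p = 0.445). Its pileup was 0.846, 1.05, 0.939 and 1.03 FPM in IRF5-/- and 1.26, 1.31, 1.42 and 0.817 FPM in IRF5+/+ at 72 h, against 0.918 and 0.828 FPM in IRF5-/- and 1.10, 1.05 and 0.950 FPM in IRF5+/+ at 0 h. Both groups at 72 h overlapped both groups at 0 h, while each IRF5-/- value at 0 h lay below each IRF5+/+ value at 0 h. In the fit that leaves out libraries without a peak, that log2 difference was −0.24 (limma adjusted p = 0.657). The median region of that fit differed by −0.46. Apart from the regions called in all libraries, 5 more were called in 4 to 10 libraries at 0.515 to 1.91 FPM, and none passed the test. The closest to the threshold lay 37.9 kb downstream of the Il21 start and was called in 1 library at 72 h and 6 at 0 h (exact adjusted p = 0.0576). Without IRF5-/- library 3 at 0 h, which lacked that peak, it passed (exact adjusted p = 0.0316).

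The calls differed in how far they depended on single libraries. The 2.6 kb and 8.4 kb regions of Il2, the regions of Il21 gained at 33.6 kb and 42.7 kb, and the region lost at 52.4 kb stayed below 0.05 in each of 15 fits that left out 1 library. The 3 regions called in 7 libraries at 72 h and 1 at 0 h, and the region lost inside Il21, stayed below it in 2 of 15 each, with exact adjusted p up to 0.113. With the number of peaks made equal in all libraries, 1 region was gained, the 2.6 kb region of Il2, and 1 was lost, the Il2 start site (exact adjusted p = 0.00942), which was not called with all peaks. The region at 52.4 kb was not called under that setting (exact adjusted p = 0.0901).

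Regions called in all 15 libraries allow a comparison of level. The locus had 5 of them, against 25.3% of all regions. The largest rise lay 27.2 kb upstream of the Il21 start (chr3:37259322-37260236). Its pileup was 3.20, 3.71, 3.67 and 3.18 FPM in IRF5-/- at 72 h, against 0.812, 0.459 and 0.877 FPM in IRF5-/- at 0 h. In IRF5+/+ cells it was 4.30, 4.83, 4.29 and 3.54 FPM at 72 h, against 0.982, 1.45, 1.94 and 1.54 FPM at 0 h. Every activated value exceeded every untreated value.

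The level of this upstream Il21 region rose 4.98-fold in IRF5-/- cells (log2 difference 2.32 ± 0.28 SE, limma adjusted p = 4.02e-14) and 2.93-fold in IRF5+/+ cells (1.55 ± 0.26, limma adjusted p = 4.05e-08). It was 1 of 5 locus regions that rose, against 7.95% of 21176 regions in IRF5-/- and 5.4% in IRF5+/+. Its difference lay above that of 99.8% of regions in IRF5-/- and 99.3% in IRF5+/+. Its peaks spanned 568 to 732 bp in IRF5-/- and 576 to 899 bp in IRF5+/+ at 72 h, against 222 to 311 bp in IRF5-/- and 341 to 724 bp in IRF5+/+ at 0 h. Without IRF5-/- library 3 at 0 h the rise in IRF5-/- was 2.02 on the log2 scale. In every alternative run the region stayed called and higher at 72 h in both genotypes.

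**Figure D3:**
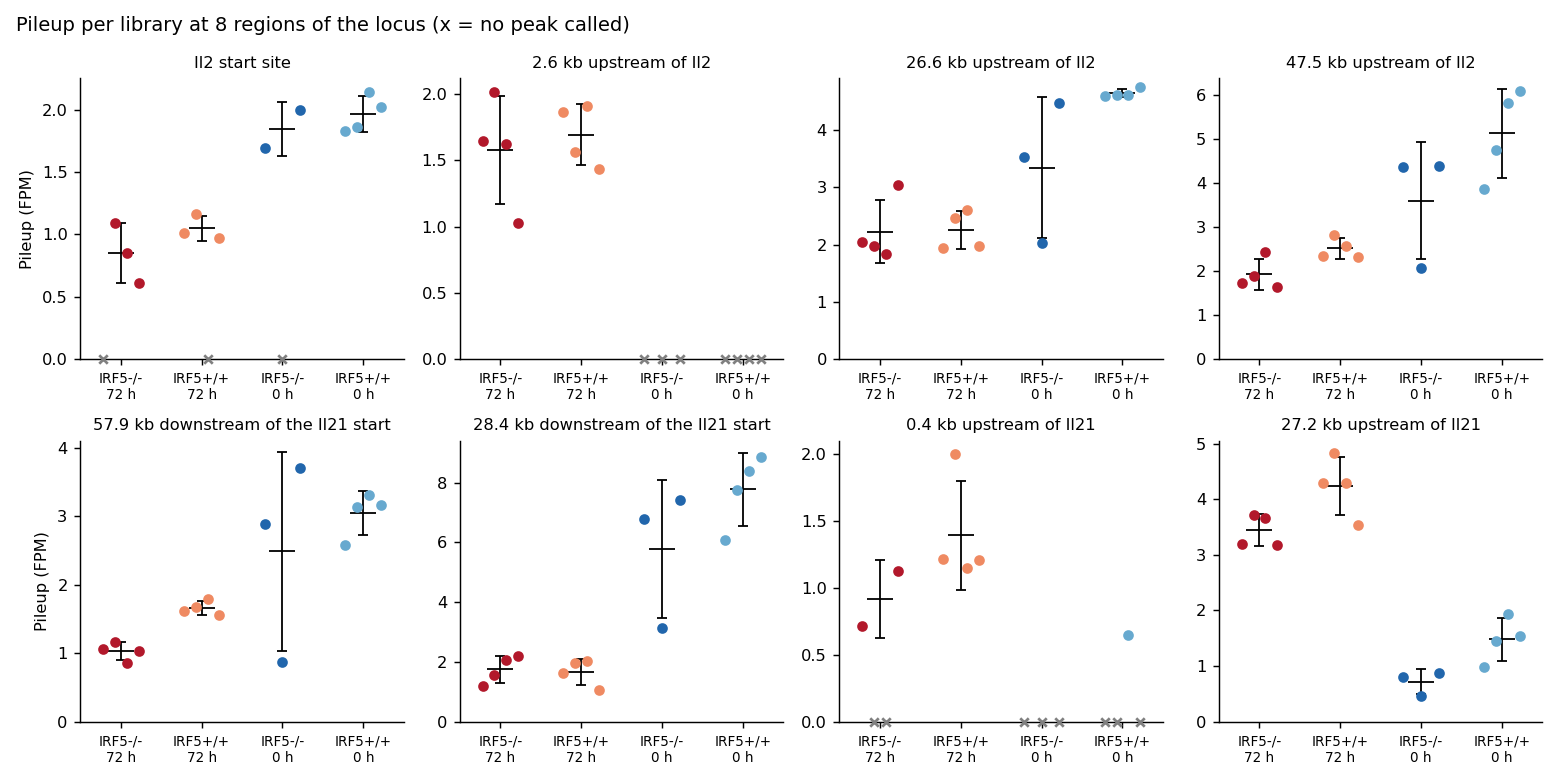
Pileup in FPM (y axis, from 0, its scale differing between panels) at 8 regions of the locus in the IRF5-/- and IRF5+/+ groups at 72 h and then at 0 h (x axis). Points are libraries, crosses at 0 are libraries without a called peak, and black bars show the mean and SD of the libraries with a peak. The region 27.2 kb upstream of Il21 stood at 3.18 to 4.83 FPM at 72 h and 0.459 to 1.94 at 0 h, and the region 28.4 kb downstream of the Il21 start moved the other way.

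The largest fall lay 28.4 kb downstream of the Il21 start, between the genes (chr3:37203901-37205785). Its highest pileup was 1.2, 1.57, 2.05 and 2.2 FPM in IRF5-/- at 72 h, against 6.78, 3.14 and 7.40 FPM in IRF5-/- at 0 h. In IRF5+/+ cells it was 1.62, 1.96, 2.03 and 1.05 FPM at 72 h, against 6.07, 7.76, 8.37 and 8.87 FPM at 0 h. The groups did not overlap, and the lowest untreated value belonged to IRF5-/- library 3. The log2 difference was −1.66 ± 0.28 (SE) in IRF5-/- (limma adjusted p = 1.09e-07) and −2.25 ± 0.26 in IRF5+/+ (limma adjusted p = 5.64e-16), and only 3.72% of regions in IRF5-/- and 1.87% in IRF5+/+ fell further. Without IRF5-/- library 3 at 0 h the difference in IRF5-/- was −2.05.

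This widest region of the locus held a pair of summits. In 8 libraries they were called as separate peaks, and in 7 a single peak was called. The summit 28384 to 28482 bp past the Il21 start was the highest in all 8 libraries at 72 h, at a median of 1.79 FPM. The summit 27204 to 27283 bp past the start had its own peak in 5 libraries at 72 h, at a median of 1.23 FPM, and was the highest in 4 of 7 libraries at 0 h. With the pileup summed over the peaks of a library, the difference was −1.99 in IRF5-/- and −1.93 in IRF5+/+ on the log2 scale. That sum adds both summits only where 2 peaks were called. These were 2 of 4 IRF5-/- and 3 of 4 IRF5+/+ libraries at 72 h, and 2 of 3 IRF5-/- and 1 of 4 IRF5+/+ libraries at 0 h.

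The other 3 shared regions had lower levels at 72 h, but nearer to the median change of all regions, −0.50 in IRF5-/- and −0.81 in IRF5+/+ on the log2 scale. The median change in IRF5-/- was −0.81 over 24203 regions without library 3 at 0 h. The region 26.6 kb upstream of Il2 (chr3:37152034-37153341) had 2.05, 1.98, 1.84 and 3.04 FPM in IRF5-/- and 1.95, 2.47, 2.60 and 1.98 FPM in IRF5+/+ at 72 h. At 0 h it had 3.53, 2.03 and 4.48 FPM in IRF5-/- and 4.60, 4.62, 4.61 and 4.75 FPM in IRF5+/+. The IRF5+/+ groups did not overlap, whereas the IRF5-/- groups did through library 3 at 0 h. Its log2 difference was −0.54 ± 0.28 (SE) in IRF5-/- (limma adjusted p = 0.0988) and −1.06 ± 0.26 in IRF5+/+ (limma adjusted p = 0.000177). Without IRF5-/- library 3 at 0 h the difference in IRF5-/- was −0.87 (limma adjusted p = 0.000229).

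The region 47.5 kb upstream of Il2 (chr3:37173011-37173987) had 1.74, 1.90, 2.43 and 1.64 FPM in IRF5-/- and 2.35, 2.83, 2.57 and 2.33 FPM in IRF5+/+ at 72 h. At 0 h it had 4.38, 2.07 and 4.38 FPM in IRF5-/- and 3.88, 4.76, 5.83 and 6.10 FPM in IRF5+/+. It fell by 0.84 on the log2 scale in IRF5-/- (limma adjusted p = 0.00962) and by 1.01 in IRF5+/+ (limma adjusted p = 0.000334). In IRF5-/- the call was lost without library 1 at 0 h (limma adjusted p = 0.0999) and without library 4 at 0 h (limma adjusted p = 0.0691).

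Next to it, 333 bp away and nearer to Il21, lay the region 57.9 kb downstream of the Il21 start (chr3:37174321-37175488). It had 1.07, 1.17, 0.854 and 1.03 FPM in IRF5-/- and 1.62, 1.67, 1.80 and 1.56 FPM in IRF5+/+ at 72 h. At 0 h it had 2.89, 0.880 and 3.70 FPM in IRF5-/- and 2.59, 3.14, 3.32 and 3.17 FPM in IRF5+/+. It fell by 1.05 on the log2 scale in IRF5-/- (limma adjusted p = 0.00121) and by 0.87 in IRF5+/+ (limma adjusted p = 0.00188). Without IRF5-/- library 3 at 0 h, whose value lay among the activated ones, the region fell by 1.68 in IRF5-/-. Without IRF5-/- library 4 at 0 h the difference was −0.64 and no longer passed (limma adjusted p = 0.0787).

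Counted together, 3 of the 5 shared regions fell in IRF5-/-, against 40.4% of all regions, and 4 of 5 fell in IRF5+/+, against 66.1% of all regions. The median over the 5 was −0.84 in IRF5-/- and −1.01 in IRF5+/+. With median-of-ratios scaling, which removes the shared shift, 30.5% of all regions were higher and 29.5% lower at 72 h in IRF5-/-, and 31.0% were higher and 30.1% lower in IRF5+/+. Under that scaling the rise upstream of Il21 and the fall 28.4 kb downstream of its start were called in both genotypes. Of the other 3 regions, none was called in IRF5+/+ (limma adjusted p = 0.109 to 0.687). In IRF5-/-, the fall 47.5 kb upstream of Il2 (limma adjusted p = 0.0193) and that 57.9 kb downstream of the Il21 start (limma adjusted p = 0.00609) were called, as they were without that scaling.

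**Figure D4:**
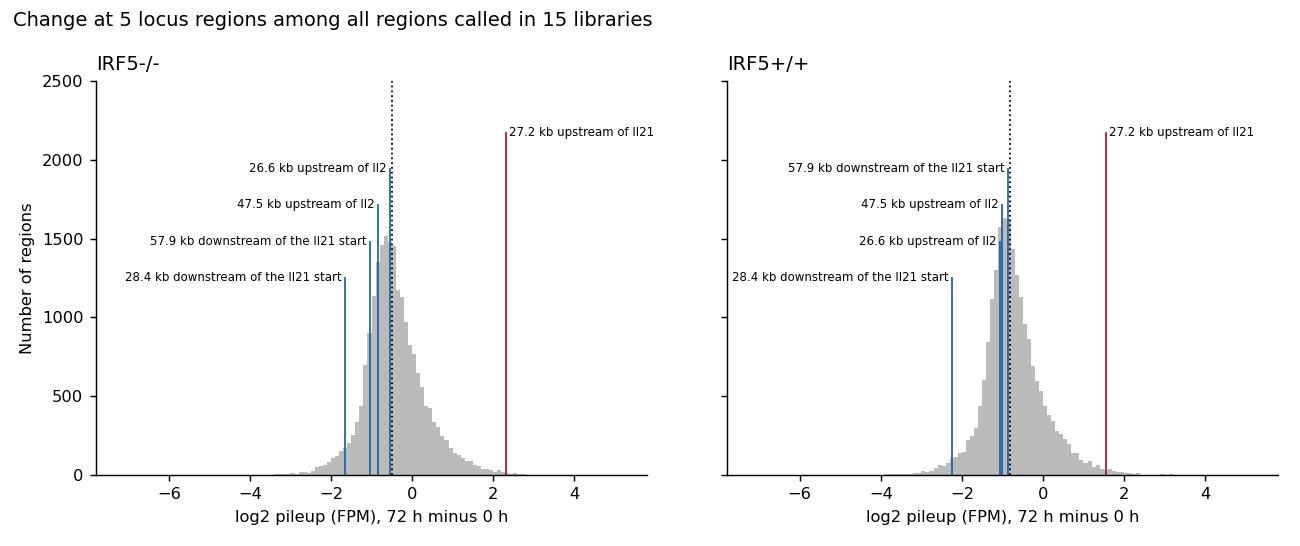
Histograms of the log2 difference in pileup in FPM, 72 h minus 0 h (x axis), over the 21176 regions called in all 15 libraries (y axis, number of regions per bin), in IRF5-/- (left) and IRF5+/+ (right) cells. Dotted lines mark the medians, −0.50 and −0.81, and coloured lines the 5 shared regions of the locus, red above 0 and blue below. The region 27.2 kb upstream of Il21 lies at 2.32 in IRF5-/- and 1.55 in IRF5+/+, in the right tail.

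The second comparison asked whether the locus differed between IRF5-/- and IRF5+/+ cells. In peak presence, 0 of the 26 regions differed by genotype, and 0.0% of all regions did. At an unadjusted p under 0.05 the exact conditional test within time called 0 of the 26 and 1168 of all regions (1.39%). The lowest p at the locus belonged to the region 35.3 kb upstream of Il2, called in 2 of 4 IRF5-/- and 3 of 4 IRF5+/+ libraries at 72 h and in 1 of 3 IRF5-/- and 4 of 4 IRF5+/+ libraries at 0 h (exact p = 0.133). The smallest p that this test can give is 0.000408, and at least 684 regions would have to reach it before any could be called. The result therefore speaks of peak presence at this number of libraries and does not show that the genotypes were alike.

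In level at 72 h, 9 locus regions were called in all 8 libraries. Of these 1 was lower in IRF5-/- cells, against 4.59% of 37364 regions, and 0 were higher, against 0.0321%. The lower region was the one 57.9 kb downstream of the Il21 start, whose values, given above, were 0.854 to 1.17 FPM in IRF5-/- and 1.56 to 1.80 FPM in IRF5+/+ without overlap. Its log2 difference was −0.70 ± 0.16 (SE, limma adjusted p = 0.0211), where the median region differed by −0.22. With median-of-ratios scaling it was −0.47 and did not pass (limma adjusted p = 0.212). Under that scaling 2 regions of 37364 were higher and 2 lower. The call was also lost without IRF5-/- library 4 (limma adjusted p = 0.0519), without IRF5+/+ library 2 (0.0963) and without IRF5+/+ library 3 (0.0598), all at 72 h.

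The gained region 33.6 kb downstream of the Il21 start had a larger difference, −0.80 ± 0.24 (SE), that missed the threshold (limma adjusted p = 0.0564). It passed without IRF5-/- library 1 at 72 h (limma adjusted p = 0.0422) and without IRF5+/+ library 4 at 72 h (limma adjusted p = 0.0209). In the fit that leaves out libraries without a peak, the intragenic Il21 region 1.3 kb past the start was also lower in IRF5-/-, with a log2 difference of −0.99 ± 0.23 (limma adjusted p = 0.0324, 3 libraries with a peak in each genotype). That fit called 2 of 18 locus regions lower, against 1247 of 54529 regions, and its median region differed by −0.21. Median-of-ratios scaling was not run on this intragenic region. The proximal Il2 regions were not called lower in IRF5-/-. At 2.6 kb the log2 difference was −0.13 (95% confidence interval −0.53 to 0.26) and at 8.4 kb it was −0.30 (−0.69 to 0.09). The strong region upstream of Il21 averaged 3.44 ± 0.29 FPM in IRF5-/- and 4.24 ± 0.53 FPM in IRF5+/+ at 72 h (SD, n = 4 each), a log2 difference of −0.29 ± 0.16 (SE, limma adjusted p = 0.245).

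At 0 h, 6 locus regions were called in all 7 libraries, and 0 differed by genotype, with 0 calls among 26133 regions (limma), of which 2698 had an unadjusted p under 0.05. The upstream Il21 region was the 1 locus region with an unadjusted p under 0.05. It averaged 0.716 ± 0.225 FPM in IRF5-/- (SD, n = 3) and 1.48 ± 0.39 FPM in IRF5+/+ (SD, n = 4), each IRF5-/- value below each IRF5+/+ value. Its log2 difference was −1.06 ± 0.37 (SE, limma adjusted p = 0.330) while the median region differed by −0.51. It was −0.77 without IRF5-/- library 3, where the median region differed by −0.13.

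The difference between the genotypes in their change with activation was tested directly. Of the 5 shared regions 0 passed, as did 0 of 21176 regions (limma), while 1 of the 5 and 547 of all had an unadjusted p under 0.05. That 1 was again the upstream Il21 region, where the log2 change in IRF5-/- minus that in IRF5+/+ was 0.77 ± 0.39 (SE, limma adjusted p = 0.844). The median region differed by 0.30. Without IRF5-/- library 3 at 0 h the value was 0.47 and that of the median region −0.09. At the region that fell furthest, 28.4 kb downstream of the Il21 start, the same quantity was 0.59 ± 0.39 (limma adjusted p = 0.844). It was 0.20 without IRF5-/- library 3 at 0 h. With summed pileups, which vary with how the peaks were split, it was −0.06.

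The authors' own final peak lists were counted by group. Of the 26 regions, 15 were in the final list of IRF5-/- and 21 in that of IRF5+/+ cells at 72 h, and 10 in that of IRF5-/- and 11 in that of IRF5+/+ cells at 0 h. Of all tested regions, 58.3% were in the list of IRF5-/- and 66.6% in that of IRF5+/+ cells at 72 h, and 44.0% in that of IRF5-/- and 48.4% in that of IRF5+/+ cells at 0 h. For Il2 alone, 6 of 7 were listed in IRF5-/- and 7 of 7 in IRF5+/+ cells at 72 h, and 3 of 7 in IRF5-/- and 4 of 7 in IRF5+/+ cells at 0 h. A region present in the final list of IRF5+/+ but not of IRF5-/- cells at 72 h was the peak nearest to the Il21 start, called in 4 of 4 IRF5+/+ and 2 of 4 IRF5-/- libraries. That difference did not pass the exact test (p = 0.214). The merged lists at 72 h held that peak in both genotypes, with a fold enrichment of 7.27 in IRF5-/- and 6.34 in IRF5+/+.

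Over the 15 libraries, the relative share of called regions of Il2 and of Il21 did not run in parallel (Pearson r = −0.22, a description over libraries that share groups and depth). The genes whose relative share ran most like that of Il2 were Cnot4 (r = 0.78), Scd1 (0.75) and Gdf6 (0.75). For Il21 they were Nmd3 (r = 0.81), Myadm (0.78) and Gpx5 (0.76), among 5482 genes with at least 5 regions.

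Other protein-coding genes within 500 kb were counted in the same way, where 18.4% of all regions were gained and 4.65% lost. Il2 and Il21 gained 3 of 7 and 4 of 19 regions, 4932438A13Rik gained 4 of 11, Fgf2 gained 3 of 7 and Gm5148 gained 3 and lost 1 of 16. Bbs12 gained 2 and lost 1 of 4, and Cetn4 gained 2 and lost 1 of 11. Spata5 gained 1 and lost 1 of 8, Spry1 gained 1 of 9, Nudt6 had no change in 2, and Adad1, the neighbour of Il2 on its 3′ side, had no tested region. None of these regions differed by genotype in peak presence (exact adjusted p of at least 0.05).

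Genes that produce or receive the same signals were counted in the same test. The receptors and JAK-STAT genes of interleukin-2 and interleukin-21 gained 11 and lost 11 of 128 regions, 8.59% each way, against 18.4% gained and 4.65% lost over all regions. Il2ra, the inducible alpha chain of the interleukin-2 receptor, gained 3 and lost 2 of 18, and Jak1, a kinase bound to both receptors, gained 4 and lost 3 of 37. Stat5b, a transcription factor activated by interleukin-2, lost 3 of 11, and Il21r, the interleukin-21 receptor, lost 1 of 9. The other common gamma chain cytokines gained 2 of 6 regions (33.3%, against the same 18.4%), 1 each at Il4 and Il9.

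Other T cell cytokines gained 12 and lost 1 of 63 regions (19.0% and 1.59%), a share gained near that of all regions. Ifng, the Th1 cytokine, gained 5 of 26. Csf2, which encodes GM-CSF, gained 2 of 6, Il17f, a Th17 cytokine, gained 2 of 3, and Il10, an anti-inflammatory cytokine, gained 1 and lost 1 of 13. Factors known to act on Il2 or Il21 gained 37 and lost 17 of 291 regions (12.7% and 5.84%), against the same 18.4% and 4.65%. Nfatc2, which encodes the NFAT1 protein, gained 9 of 26, Nfkb1 gained 9 and lost 3 of 34, Jun, an AP-1 subunit, gained 5 of 15, and Prdm1, the gene of the repressor Blimp-1, gained 4 and lost 1 of 24. No region of these lists differed by genotype in peak presence.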

How the data were processed

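The authors' deposited per-library, merged-replicate and final peak lists were used. The submitters' processing notes name Trim Galore 0.5.0, Bowtie2 2.2.9, HOMER 4.10.4 and the build mm10. Per the file headers, peaks were called with MACS2 2.1.1.20160309 on read pairs, without a control, at a q value of 0.05. The deposited pileup signal is the whole number of fragments over the summit. The deposited fold enrichment is the ratio of pileup to local background, and the −log10 q-value deposited with each peak comes from the same test, as does its −log10 p-value, per the file headers. The deposited score of the final lists was not used as a measure. How the authors made the final lists from the merged ones was not stated. Fragments after filtering, from the headers, set the depth.

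Of 111393 merged regions, the test took the 83743 seen in 2 or more libraries. Presence was tested by a two-sided exact conditional test, stratified by genotype or time. Pileup per 1000000 fragments (FPM) was compared as log2 values with limma 3.58.1 (R 4.3.3), without a pseudocount, in regions called in every library of the fit. Over all 15 libraries limma gave every region the same spread, so the standard error is shared. The same holds for regions called in all 7 libraries at 0 h, but not for the fit at 72 h. Benjamini-Hochberg adjustment covered all regions, with a threshold of 0.05. No peak means below the caller's threshold, not closed chromatin. Both tests were checked on simulated data. Genes came from RefSeq (GRCm38.p6). Values per library are given for changed regions, regions within 5 kb of a gene and regions called in all 15 libraries. Of each gene list, up to 4 genes with the most changed regions are named. The members, lists and tests were chosen with earlier results of these data known. Alternatives were other peak thresholds, equal peak numbers, other region and gene rules, other scalings, a replicate block and leaving out each library. Requiring peaks to cover a larger part of a region, and equal peaks without IRF5-/- library 3 at 0 h, were chosen after seeing the data. Python 3.11.15 and scipy 1.17.1 were used. Some genes of the lists and of the neighbourhood are not reported here.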

Additional observations from a re-analysis of the deposited data

Results flagged for a closer look

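In groups of 4 libraries, the gap of the highest or lowest library to its nearest neighbour was divided by the range of the group. It exceeded the critical value of Dixon's test in 4 of 39 groups, where chance flags about 1 in 20 for continuous values. Some of the 39 groups were counts of regions, for which that rate does not hold. At the peak nearest to the Il21 start, IRF5+/+ library 2 at 72 h stood at 2.0 FPM, above 1.15 to 1.22 in the others (ratio 0.920). At the region 37.9 kb downstream of the Il21 start, IRF5+/+ library 2 at 0 h stood at 0.965 FPM, above 0.566 to 0.633 in the others (ratio 0.832). At the region 26.6 kb upstream of Il2, IRF5+/+ library 4 at 0 h stood at 4.75 FPM, above 4.60 to 4.62 in the others (ratio 0.839). IRF5+/+ library 4 at 0 h also had 5 of 7 Il2 regions called, against 4 in each of the others (ratio 1). Where the other counts are equal, the ratio is 1 whatever the size of the difference.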

How the results depend on the processing

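The number of gained regions, 7, was 1 with equal peak numbers, 4 when regions of 1 library were tested too, 2 with genes within 20 kb, 4 when peaks had to cover a larger part of the region, 2 with equal peaks without IRF5-/- library 3 at 0 h (1 of them, the peak nearest to the Il21 start, not among the 7), and 4 to 6 without any 1 library. The number of lost regions, 2, was 1 with equal peak numbers (the Il2 start site, not among the 2), 1 with genes within 20 kb, 1 with equal peaks without IRF5-/- library 3 at 0 h, and 1 to 3 without any 1 library. With the replicate number as a block, 0 regions were gained and 0 lost at the locus and in the genome. Under the block even the 2.6 kb region of Il2, which separated all activated from all untreated libraries, reached an exact adjusted p of 0.141. No region could therefore pass, and the block cannot decide on gains or losses. The numbers did not pair the libraries: deviations of libraries with the same number correlated between −0.17 and 0.23. Per the file headers, IRF5+/+ library 4 came from an alignment numbered 5 at both times. Its number therefore need not match that of IRF5-/- library 4. The block changed no call of level at the locus. In IRF5+/+ the 4 falls in level became 1 with median-of-ratios scaling; in IRF5-/- the 3 became 1 to 4 without any 1 library. The 1 lower level in IRF5-/- at 72 h became 0 with median-of-ratios scaling, 0 with summed pileups, 2 with a pseudocount of 0.1, 2 when regions called in at least 2 libraries of every group were fitted, and 0 to 3 without any 1 library. The other alternatives kept these counts within 1.5 times, and no called direction was reversed. Overlap of 50% of a peak or region, as first planned, equals the 1 bp rule by construction. The weakest peak called in a library stood near 0.4 FPM, but this is not a floor for every region. Peaks were called against local background. At the region 31.1 kb downstream of the Il21 start, peaks at 0 h stood at 1.78 to 1.91 FPM. Their fold enrichment was only 2.18 to 3.0. A library without a peak may therefore lie above 0.4 FPM.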
